A study of Mus musculus with 92 samples.

Results

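Siglecs are lectins of the immunoglobulin superfamily that sit on immune cells and bind sialic acids, the sugars at the outer ends of the chains on cell surfaces. The members Siglec1, Siglece, Siglecf, Siglecg, Siglech and Cd33 were taken by symbol from the deposited table of normalized expression, where 6 of 29956 named genes matched. The study set mouse macrophages grown from conditionally immortalized progenitors beside primary cells, in culture and after transplantation into brain, and asked what loss of Adar1 does in them. Messenger RNA was sequenced in bulk in 92 libraries of 25 groups.

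Most Siglecs of the CD33-related branch hold back their cell: Siglece, Siglecf and Siglecg carry inhibitory motifs in the cytoplasm that recruit the phosphatases SHP-1 and SHP-2. Siglech has no such motif and signals through the adaptor DAP12 (gene Tyrobp); it is a known marker of microglia and of plasmacytoid dendritic cells. Siglec1 (sialoadhesin) is an adhesion receptor of macrophages that interferon induces, and Cd33 is the mouse counterpart of a human receptor on myeloid cells that has been linked to Alzheimer's disease.

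All cells came from mice of the FVB strain. Bone marrow (BM) progenitors were enriched from wild-type marrow by depletion of lineage-positive cells on magnetic columns and BM monocytes by a monocyte isolation kit, with 3 libraries each. Bone marrow-derived (BMD) macrophages had been cultured with M-CSF for 7 days (3 libraries). ER-Hoxb8 progenitors carry a Hoxb8 protein under the control of estrogen, which keeps them immature while estradiol and GM-CSF are in the medium; they were sampled undifferentiated, at day 4 and, as macrophages, at day 7 of culture in M-CSF without estradiol (3 libraries each). Their titles name a Cas9 mouse as the source, while the marrow groups and BMD macrophages were wild type, so in the comparisons between them cell origin and genotype cannot be told apart. Microglia-like cells (MLCs), BMD or ER-Hoxb8 by origin, were recovered from the brains of Csf1r-/- hosts, which lack their own microglia (6 libraries each). As the paper describes, these hosts were pups injected in the brain with marrow or ER-Hoxb8 progenitors. By library name alone the ER-Hoxb8 donors were of 2 kinds, GFPHox in replicates 1 to 3 and WTHox in replicates 4 to 6. They are called GFP and wild-type donors here. The titles of MLCs give no donor genotype and name no Cas9. The paper shows GFP+ marrow as the BMD donor in its engraftment images, while BMD macrophages are titled wild type. Microglia came from wild-type mice that had received no injection (9 libraries), and cells from brain had been sorted by CD45 and CD11B, a gate that other myeloid cells also pass. Cas9+/- ER-Hoxb8 cells transduced with a non-targeting guide (NTC) or with guide 1 or guide 2 against Adar1 were sampled as progenitors (3 libraries each) and as day 7 macrophages (3 for NTC and for guide 1, 5 for guide 2). In a further experiment NTC and guide 1 macrophages were grown with the JAK inhibitor baricitinib at 0, 0.0006, 0.016, 0.4 or 10 µM, in 3 or 4 libraries for each of the 10 groups. The doses are those of the sample titles; the protocol text gives 0.00064 and 0.16 µM in place of 0.0006 and 0.016 µM. The labels number the replicates. For the baricitinib series the protocol describes them as differentiated apart from each other; for the other edited cells nothing says whether they were separate cultures, so p-values there measure only the spread between these samples.

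Of the 6 members, 5 had a promoter among the RefSeq promoters at hand for the mouse assembly GRCm38.p6, all on chromosome 7. None was at hand for Siglec1. Siglecf and Siglecg are neighbours with 0 protein-coding genes between them, 9 such genes lie between Siglecg and Cd33, 4 between Cd33 and Siglece, and 190 between Siglece and Siglech. Promoters of 4 genes are printed because Siglece, Siglecf and Cd33 varied together among microglia while Siglech followed them less closely. Each runs 5′ to 3′ on the strand of its gene, from 250 bases before to 50 bases after the start of the transcript: Siglecf at chr7:43351091-43351390 (+), Cd33 at chr7:43533122-43533421 (-), Siglece at chr7:43660112-43660411 (-) and Siglech at chr7:55767934-55768233 (+). Capitals mark every match to one of 5 motifs searched on both strands.
Siglecf: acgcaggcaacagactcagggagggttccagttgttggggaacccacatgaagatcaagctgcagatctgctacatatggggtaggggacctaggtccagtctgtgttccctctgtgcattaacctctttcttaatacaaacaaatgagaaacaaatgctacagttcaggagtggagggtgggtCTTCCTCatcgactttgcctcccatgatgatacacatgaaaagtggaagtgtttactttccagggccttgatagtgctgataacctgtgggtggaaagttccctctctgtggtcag
Cd33: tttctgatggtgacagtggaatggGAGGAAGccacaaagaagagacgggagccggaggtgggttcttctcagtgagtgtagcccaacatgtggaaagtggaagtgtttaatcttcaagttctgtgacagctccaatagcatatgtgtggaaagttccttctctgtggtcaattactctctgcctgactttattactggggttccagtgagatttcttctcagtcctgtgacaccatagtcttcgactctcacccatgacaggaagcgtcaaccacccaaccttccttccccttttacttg
Siglece: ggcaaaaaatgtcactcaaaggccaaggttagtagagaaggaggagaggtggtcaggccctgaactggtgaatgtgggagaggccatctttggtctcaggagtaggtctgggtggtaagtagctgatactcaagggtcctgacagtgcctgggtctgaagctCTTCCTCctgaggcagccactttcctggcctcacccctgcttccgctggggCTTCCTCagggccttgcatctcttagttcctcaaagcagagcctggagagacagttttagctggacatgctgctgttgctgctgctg
Siglech: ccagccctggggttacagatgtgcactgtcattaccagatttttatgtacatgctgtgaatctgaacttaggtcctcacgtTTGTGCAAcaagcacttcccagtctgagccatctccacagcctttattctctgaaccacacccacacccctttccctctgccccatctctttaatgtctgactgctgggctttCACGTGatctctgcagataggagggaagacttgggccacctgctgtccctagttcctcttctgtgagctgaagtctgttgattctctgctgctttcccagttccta
The PU.1 motif GAGGAAG, present in 13.6% of 32851 promoters of this length, matched in Siglecf at bases 185 to 191, in Cd33 at 25 to 31, and in Siglece at 163 to 169 and at 214 to 220, counted from the first base printed. Siglecg, not printed, held it at bases 38 to 44 of the earlier of its 2 listed starts. In Siglech the capitals mark the C/EBP motif TTGCNNAA (10.8% of promoters) at bases 82 to 89 and the E-box CACGTG (7.15%) at bases 195 to 200. No member's window held the interferon response motif, GAAA on either side of any 2 bases (3.44%), or the AP-1 motif TGANTCA (7.81%). The windows of Siglecf and Cd33 share runs of 16 bases (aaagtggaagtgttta) and of 12 bases (gtggaaagttcc and tctctgtggtca) on the same strand. No other pair of members shares a run of 12 bases or more. A match describes letters and shows no binding.

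Values are log2 CPM (counts relative to library size), normalized by the authors in 6 separate sets of libraries, each recognised by its own lowest value, and comparisons were made only within a set. Depth, inferred from the steps between low values, ran from 34.36 to 48.95 M counts (mega) in the 12 libraries of marrow cells and ER-Hoxb8 cells up to day 4. It was 9.09 to 43.38 M in the 27 libraries of in vitro macrophages, MLCs and microglia. In the 11 libraries of NTC and guide 1 cells it was 17.22 to 41.89 M, in the 8 of guide 2 it was 18.5 to 27.15 M, and in the 33 baricitinib libraries it was 6.06 to 34.22 M. NTC macrophage replicate 2, at 19.55 M, stands alone in a set and entered no test. A value at or under 3 counts is taken as the floor, and such floors cover counting error only. A gene counts as called where limma put its adjusted p under 0.05 and its log2 fold change (log2FC) reached 2 in size. Members share few 31-base words with transcripts of other genes, from 0.659% of the words of Siglech to 1.66% of those of Siglec1, except Siglecg with 7.01%, most of them shared with the gene model Gm29791; reads of Siglecg are therefore less certain.

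Several libraries stood apart before any test. Microglia replicate 8 had summed CPM of 264.0 for 3 astrocyte markers, against 1.05 to 5.14 in the other 8 microglia libraries, and 628.4 for 3 oligodendrocyte markers, against 14.1 to 55.7. ER-Hoxb8 MLC replicate 6 had 6743 CPM of 3 monocyte markers, most of it Ccr2, against 102.1 to 420.0 in the other 5 libraries. ER-Hoxb8 progenitor replicate 2 held 4783 CPM of 4 macrophage markers, where replicates 1 and 3 held 1811 and 422.4. In ER-Hoxb8 macrophage replicate 3 Siglece, Siglecf and Cd33 were far below the other replicates. Where leaving one of them out changed the call of a member, this is stated.

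The first question is which Siglecs the marrow populations express. Siglech fell from BM progenitors to BM monocytes and was the member called there, while Siglece and Cd33 were higher in every monocyte library without passing the adjusted test. Siglech read 5.13, 6.33 and 6.43 in progenitors and 1.76, 2.06 and 1.88 in monocytes. The groups are far apart, with a log2FC of -4.06 (SE 0.48, n = 3 and 3, limma adjusted p = 0.000657). Markers of plasmacytoid dendritic cells, a list of 5 genes, moved with it: they summed to 151.8, 356.5 and 302.4 CPM in the progenitor libraries, led by Ly6d, and to 32.19, 30.37 and 33.2 CPM in monocytes, where Tcf4 led and Klk1 was at 0. Their part in the result was not tested, and in bulk RNA fewer cells of a type and less RNA per cell cannot be told apart. The share of members called was 1 of 6, against 6.84% of 12056 genes tested; the median log2FC was -0.547 for the members and -0.086 for all genes.

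Siglece, an inhibitory receptor of neutrophils, monocytes and macrophages, read 2.5, 4.76 and 4.03 in progenitors and 6.11, 6.21 and 6.05 in monocytes, close together and above every progenitor library (log2FC 2.36, SE 0.92, adjusted p = 0.109). Cd33 read 0.05, 2.57 and 1.24 against 3.52, 4.14 and 3.73. Again the groups did not overlap, and limma gave a log2FC of 2.51 (SE 0.82) at an adjusted p of 0.0627; without BM progenitor replicate 2 it became 3.15 at 0.0489 and was called. Siglecf, known from eosinophils and alveolar macrophages, read 1.93, 2.503 and 3.14 in progenitors and 1.67, 0.64 and 1.5 in monocytes. All 3 monocyte values lay lower, with a log2FC of -1.26 at an adjusted p of 0.165. The 4 eosinophil markers summed to 302.0 to 396.2 CPM in progenitors, led by Prg2 with Il5ra at 0, and to 63.67 to 144.5 CPM in monocytes. Siglecg, an inhibitory receptor of B cells, read 4.58, 7.29 and 6.95 in progenitors and 5.33, 5.78 and 5.25 in monocytes, with overlap. Its low progenitor library is also the one among progenitors with least of the 5 B cell markers, which summed to 128.2, 848.9 and 603.4 CPM with Cd79a on top. In monocytes they summed to 56.8, 71.23 and 75.91 CPM, under every progenitor library, while Siglecg there lay above that low library. The part of these and of the eosinophil markers was not tested. Siglec1 stayed low in both, between -0.73 and 1.06.

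**Figure D1:**
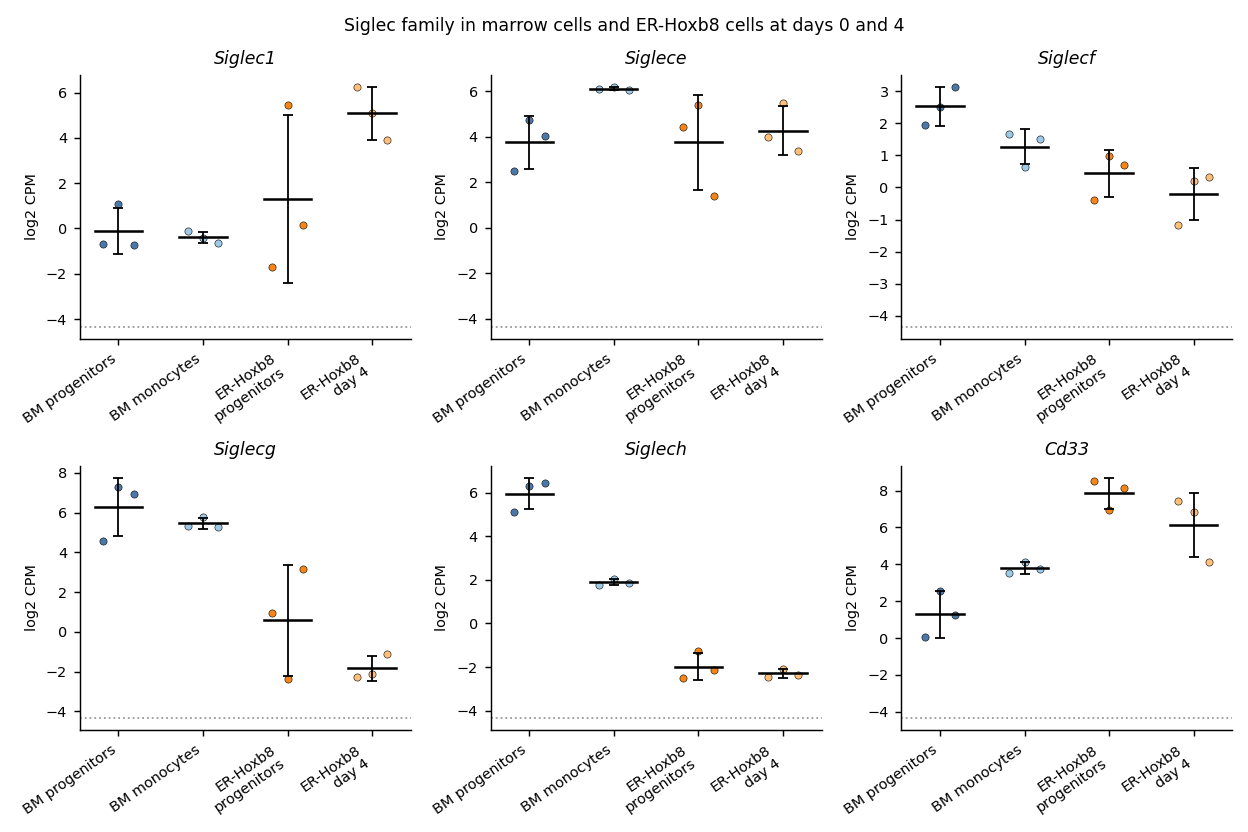
Expression of the 6 members (y axes, log2 CPM) in BM progenitors, BM monocytes, ER-Hoxb8 progenitors and ER-Hoxb8 cells at day 4; points are libraries, lines the mean, bars the SD and the dotted line the lowest value of the set. Siglech reads 5.13 to 6.43 in BM progenitors and below -1 in all 6 ER-Hoxb8 libraries, and Cd33 is higher in ER-Hoxb8 progenitors (6.92 to 8.53) than in marrow progenitors (0.05 to 2.57).

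Set beside the marrow progenitors they stand in for, ER-Hoxb8 progenitors had another set of Siglecs. Cd33 was higher by a log2FC of 6.57, while Siglech, Siglecg and Siglecf were lower. That made 4 of 6 members called, 1 higher and 3 lower, where 15.3% of all genes tested were called (median log2FC -1.05 for members, -0.076 for all genes). Siglech passed the filter of this fit through marrow libraries alone, and Siglecg would not have passed on its ER-Hoxb8 libraries, so the count is a description. Cd33 read 8.53, 6.92 and 8.12 in the ER-Hoxb8 libraries, every one above the highest marrow value of 2.57 (SE 0.82, adjusted p = 0.000131). Siglech read -2.51, -1.27 and -2.15, against at least 5.13 in marrow (log2FC -7.94, SE 0.48, adjusted p = 6.33e-07).

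Siglecg read 0.96, -2.40 and 3.17 in ER-Hoxb8 progenitors, a wide spread that still lay under the 4.58 to 7.29 of marrow (log2FC -5.70, SE 1.137, adjusted p = 0.00339). Siglecf read -0.39, 0.98 and 0.71, below the marrow range of 1.93 to 3.14, with a log2FC of -2.09 (SE 0.57, adjusted p = 0.0193). This call ended without BM progenitor replicate 2 (-2.10, adjusted p = 0.057), without BM progenitor replicate 3 (-1.78, adjusted p = 0.0925) or without ER-Hoxb8 progenitor replicate 1 (-1.68, adjusted p = 0.0751), with quantile normalization (-1.30, adjusted p = 0.086) and with log2(CPM + 1) (-1.52). Markers differed too: those of eosinophils summed to at most 0.4555 CPM in ER-Hoxb8 progenitors, those of B cells to 1.541, 19.41 and 2.262 CPM, and those of plasmacytoid dendritic cells to 68.38, 28.28 and 22.63 CPM, led by Tcf4 with Klk1 at 0. Macrophage markers were higher, at 1811, 4783 and 422.4 CPM against 128.5 to 177.6 CPM in marrow, and the 4 progenitor markers lower, at 54.09, 26.06 and 2363 CPM against 5326 to 11070 CPM. Their part was not tested. Siglece overlapped (4.46, 5.42 and 1.41, log2FC -0.003), as did Siglec1 at -1.69, 5.44 and 0.17. The single high Siglec1 value belongs to replicate 2, the library with the most macrophage marker RNA. Replicate 1, with 1811 CPM of these markers, read lower for Siglec1 than replicate 3 with 422.4 CPM, and their part was not tested.

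From undifferentiated ER-Hoxb8 cells to day 4, limma called 0 of 6 members and 0% of all genes, with 1129 genes and the member Siglec1 at an unadjusted p below 0.05. Siglec1 read 6.25, 5.11 and 3.91 at day 4. These values overlap those of the progenitors through replicate 2 alone (log2FC 3.79, SE 1.41, adjusted p = 0.497). Siglecg read -2.28, -2.13 and -1.12 at day 4, with a log2FC of -2.42 at an adjusted p of 0.531. Without progenitor replicate 2 both were called, Siglec1 with 5.85 (adjusted p = 0.00137) and Siglecg with -3.91 (adjusted p = 0.0131). Over all genes, 733 were called in that refit. Cd33 was 7.41, 6.83 and 4.15, Siglece 3.98, 5.48 and 3.38, Siglecf -1.16, 0.21 and 0.32, and Siglech -2.44, -2.07 and -2.35, all overlapping the progenitors. The replicate numbers held as pairs here, and within all 3 pairs Cd33 and Siglecf were lower at day 4, without passing with a block for the pair (adjusted p = 0.465 and 0.638). The median log2FC of the members was -0.478 and that of all genes -0.009.

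Macrophages of both origins were compared in vitro next, to ask how alike they are. Against BMD macrophages, ER-Hoxb8 macrophages had 0 of 4 tested members called by limma, where 1.47% of 10764 genes were. Siglec1 was high in both, at 4.91, 4.38 and 6.03 in BMD macrophages and 6.12, 6.13 and 3.94 in ER-Hoxb8 macrophages, with overlap. Cd33 read 5.25, 5.86 and 4.25 in BMD and 7.45, 6.92 and 1.19 in ER-Hoxb8 macrophages. Replicates 1 and 2 of the latter lie above all BMD values and replicate 3 far below. Siglece split the same way, with 3.00, 0.39 and 2.46 against 4.54, 4.65 and -1.92.

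Siglecf read 5.44, 4.08 and 0.40 in BMD macrophages and -0.15, 1.42 and -3.09 in ER-Hoxb8 macrophages, the last from 1.0 counts. It was the member with an unadjusted p below 0.05 (log2FC -3.91, SE 1.57, adjusted p = 0.382), as were 1327 genes. Eosinophil markers summed to 1.743, 1.989 and 0.1734 CPM in the BMD libraries. The lowest BMD library in both, replicate 3, has a library name of another form than replicates 1 and 2, under the same title. Siglecg, between -2.41 and -0.86, and Siglech, between -1.64 and 1.27, were too low to be tested here. The median log2FC was 0.179 for the tested members and 0.018 for all genes.

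**Figure D2:**
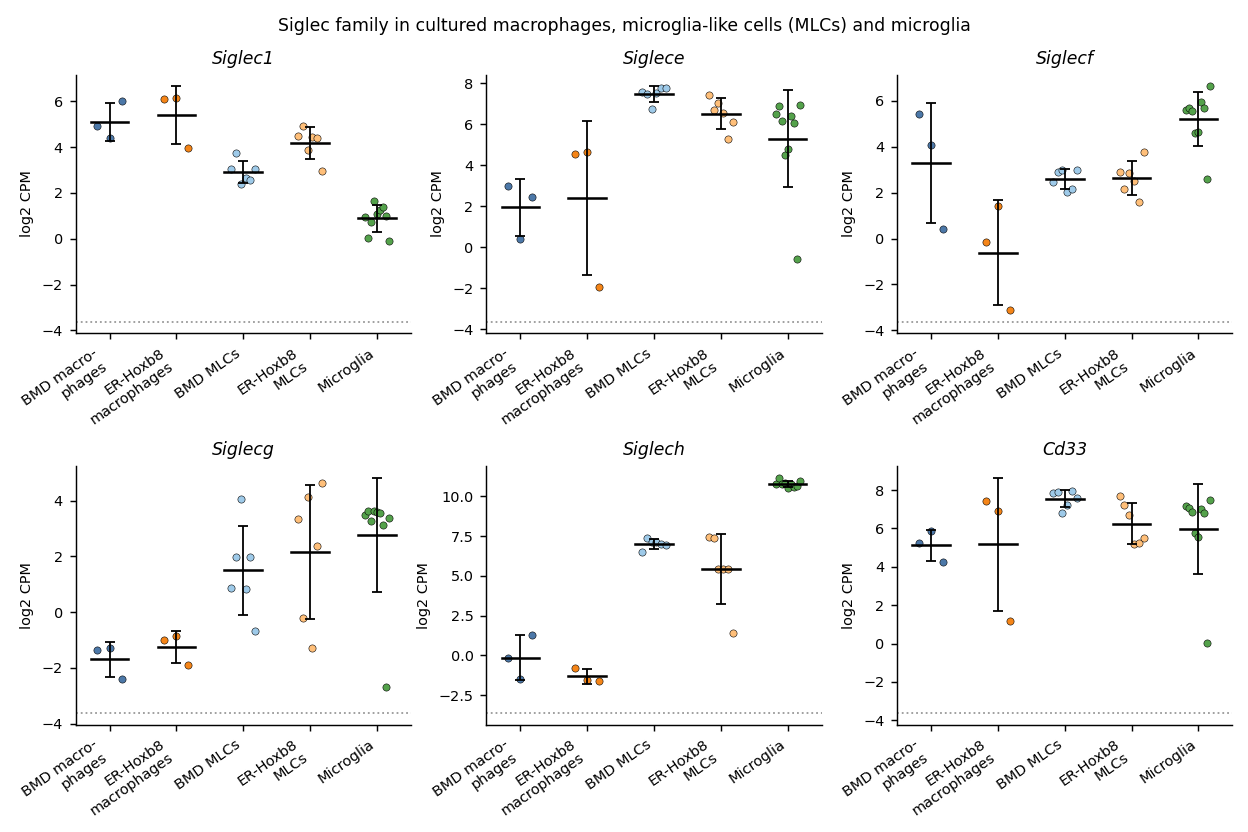
Expression of the 6 members (log2 CPM, y axes) in cultured BMD and ER-Hoxb8 macrophages, in MLCs of both origins and in microglia; points are libraries, lines the mean, bars the SD and the dotted line the lowest value of the set. Siglech lies between 10.52 and 11.18 in microglia, above all MLC values (1.43 to 7.43), while Siglec1 is lowest in microglia.

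Transplantation was meant to show whether donor cells take on the profile of microglia. Siglech was nearly absent in cultured macrophages and high in MLCs of both origins, and Siglece was higher in MLCs too. The paper describes progenitors as the injected cells, so cultured macrophages are not the cells before transplantation. BM progenitors, normalized in another set and not compared here, read 5.13 to 6.43 for Siglech. Siglech read a lowest, median and highest 6.48, 7.06 and 7.38 in BMD MLCs, against -0.16, -1.51 and 1.27 in BMD macrophages (log2FC 7.15, SE 0.76, n = 6 and 3, adjusted p = 1.61e-07). In ER-Hoxb8 MLCs it read 1.43, 5.45 and 7.43, against -0.78, -1.52 and -1.64 in culture (log2FC 6.74, SE 0.76, adjusted p = 2.03e-07). All MLC libraries lay above all macrophage libraries of their origin, including ER-Hoxb8 MLC replicate 6, the lowest. For ER-Hoxb8 cells the donor line may differ as well, as titles name a Cas9 mouse in culture and library names GFP or WT in brain. The paper's Cas9 mice also carry EGFP, so the names do not settle whether the lines differ. A part of the donor line cannot be told apart from that of the brain.

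Siglece read a lowest, median and highest 6.75, 7.55 and 7.79 in BMD MLCs, above every BMD macrophage (log2FC 5.53, SE 1.25, adjusted p = 0.00163). In ER-Hoxb8 MLCs it read 5.30, 6.62 and 7.45, again without overlap (log2FC 4.10, SE 1.25, adjusted p = 0.0134). Neutrophil markers, 5 genes led by S100a8, differed as well, with 2265 to 19400 CPM in BMD MLCs and 135.9 to 25600 CPM in ER-Hoxb8 MLCs, against at most 12.26 and 33.58 CPM in the macrophages of each origin. Siglece is known from neutrophils too, and the part of such cells was not tested. Siglec1 moved the other way: it read 2.39, 2.85 and 3.76 in BMD MLCs, all under the BMD macrophages (log2FC -2.20, SE 0.52, adjusted p = 0.00247). Without BMD macrophage replicate 3 the log2FC was -1.74 (adjusted p = 0.0386), short of the fold limit. In ER-Hoxb8 MLCs Siglec1 read 2.95, 4.43 and 4.95 and overlapped the macrophages (log2FC -1.22, adjusted p = 0.0706). The overlap came through ER-Hoxb8 macrophage replicate 3 alone. Without that library the log2FC was -1.94 (adjusted p = 0.0105), short of the fold limit.

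Siglecf was called in cells of one origin: it read 1.596, 2.67 and 3.78 in ER-Hoxb8 MLCs, above all ER-Hoxb8 macrophages (log2FC 3.24, SE 0.90, adjusted p = 0.00709), while BMD MLCs at 2.02, 2.70 and 2.98 lay inside the range of BMD macrophages (log2FC -0.71). The difference between these effects was not tested. Eosinophil markers summed to 12.9 to 3535 CPM in ER-Hoxb8 MLCs, where Prg2 led and replicate 5 was highest, and to 9.254 to 266.1 CPM in BMD MLCs; their part was not tested. Siglecg read -1.27, 2.86 and 4.63 in ER-Hoxb8 MLCs and overlapped the macrophages (log2FC 3.41, SE 1.25, adjusted p = 0.0364). In BMD MLCs it read -0.69, 1.42 and 4.07, just above the macrophages (log2FC 3.20, adjusted p = 0.0538). B cell markers summed to 8.412 to 175.4 CPM in ER-Hoxb8 MLCs and to 19.5 to 94.97 CPM in BMD MLCs. Cd79b led in all of these libraries except ER-Hoxb8 MLC replicate 3, the highest, where Ms4a1 led with 63.58 CPM.

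Cd33 was not called, at 6.82, 7.70 and 7.97 in BMD MLCs (log2FC 2.43, adjusted p = 0.129) and 5.17, 6.10 and 7.71 in ER-Hoxb8 MLCs (log2FC 1.07). Without ER-Hoxb8 macrophage replicate 3 the latter turned in direction, to -0.92 (adjusted p = 0.583). In all, 3 of 6 members were called in BMD cells, 2 higher and 1 lower, beside 15.9% of 12518 genes, and 4 of 6, all higher, in ER-Hoxb8 cells beside 19.3%. Siglech and Siglecg exceeded 1 CPM in no macrophage library of this fit, except Siglech in 1 from BMD cells, and passed the filter through libraries from brain, so both counts are descriptions. Median log2FCs of the members were 2.81 and 3.32, those of all genes -0.014 and -0.151. The ER-Hoxb8 count rests on macrophage replicate 3. Without it Siglece had a log2FC of 1.93 (adjusted p = 0.23), Siglecf 1.99 (adjusted p = 0.109) and Siglecg 3.09 (adjusted p = 0.118), which left Siglech as the member called. The Siglecg call also ended when any of 6 other libraries was left out: ER-Hoxb8 macrophage replicate 1 (adjusted p = 0.0819) or 2 (0.0744), or ER-Hoxb8 MLC replicate 1 (0.0597), 3 (0.0676), 5 (0.0528) or 6 (0.0732). It ended too without the filter (0.0627) and with quantile normalization (0.0549), and that of Siglecf with log2(CPM + 1) (1.93, adjusted p = 0.0337). Without BMD MLC replicate 6, Siglecg in BMD cells was called (log2FC 3.63, adjusted p = 0.0352), and with quantile normalization Cd33 was (2.82, adjusted p = 0.0409).

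How close did the engrafted cells come to microglia? Siglech stayed below and Siglec1 above, in MLCs of both origins. In microglia Siglech read 10.52, 10.81 and 11.18 over 9 libraries, that is 1469 to 2321 CPM. BMD MLCs were lower by a log2FC of -3.78 (SE 0.57, n = 6 and 9, adjusted p = 1.36e-05) and ER-Hoxb8 MLCs by -5.37 (SE 0.57, adjusted p = 2.3e-08), without overlap in either case. Over the 27 libraries the order of medians for Siglech was microglia, BMD MLCs, ER-Hoxb8 MLCs and then macrophages; the MLC groups overlapped each other, and so did the macrophage groups. Genes close to it by Pearson r, over 27 libraries that fall into these groups, included P2ry12 (0.988), a known marker of microglia, Sparc (0.98), Crybb1 (0.973) and Clgn (0.972).

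Siglec1 read -0.09, 1.011 and 1.63 in microglia, under every MLC library. The log2FC was 2.02 for BMD MLCs (SE 0.39, adjusted p = 0.000337) and 3.30 for ER-Hoxb8 MLCs (SE 0.39, adjusted p = 1.64e-07). The former sits at the fold limit and fell under it without BMD MLC replicate 1, 2 or 6 or microglia replicate 2 or 9, where it lay between 1.85 and 2.00. It did so too with quantile normalization (1.85), with log2(CPM + 1) (1.59) and without microglia replicates 8 and 9 together (1.90). Its medians ran, from high to low, through ER-Hoxb8 macrophages, BMD macrophages, ER-Hoxb8 MLCs, BMD MLCs and microglia, where each group overlapped the next except BMD MLCs and microglia. The gene most like it over the 27 libraries was Spp1 (r = 0.932). Border macrophage markers, 5 genes, differed as well. They summed to 15.28 to 129.3 CPM in microglia, 2050 to 4642 CPM in BMD MLCs and 99.5 to 1476 CPM in ER-Hoxb8 MLCs. Their part in the level of Siglec1 was not tested.

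Siglecf was higher in microglia, at 2.59, 5.59 and 6.63, than in MLCs. The log2FC was -2.63 for BMD MLCs (SE 0.67, adjusted p = 0.00499) and -2.59 for ER-Hoxb8 MLCs (SE 0.67, adjusted p = 0.00336). The groups overlapped through microglia replicate 8 alone, since the other 8 microglia libraries lay at 4.60 or more. Eosinophil markers in microglia summed to 17.81, 79.21 and 886.2 CPM (lowest, median and highest), led by Prg2 in replicates 1 to 6 and by Ccr3 in 7 to 9, with the highest in replicate 5, where Siglecf read 4.63. Siglece (4.51 to 6.96 without replicate 8), Siglecg (3.11 to 3.63) and Cd33 (5.56 to 7.49) were not called in MLCs of either origin, though with log2(CPM + 1) Siglece was in BMD MLCs (2.02, adjusted p = 0.0454). In each comparison 3 of 6 members were called, 1 higher and 2 lower, beside 10.7% of all genes in the comparison of BMD MLCs and 16.3% in that of ER-Hoxb8 MLCs. The medians of members were 0.153 and -0.163, those of all genes 0.064 and -0.103. Both comparisons use the same microglia. Without microglia replicate 8 the log2FCs of Siglece, Siglecg and Cd33 were 1.44, -1.95 and 0.83 for BMD MLCs. For ER-Hoxb8 MLCs they were 0.48, -1.29 and -0.46. Both medians of members are then negative and larger in size, while the count of 3 members called stays the same.

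Among the 9 microglia libraries Siglece, Siglecf and Cd33 varied together. Siglece read 6.52, 6.91, 6.17, 4.51, 4.80, 6.39, 6.06, -0.55 and 6.96 in replicates 1 to 9, and Cd33 read 7.19, 7.05, 6.85, 5.78, 5.56, 7.03, 6.79, 0.01 and 7.49. Replicates 4 and 5 are low in both and replicate 8 is lowest in both. The same 3 libraries had the least macrophage marker RNA, 5453, 5342 and 2762 CPM against 6763 to 20290 CPM in the others, and the lowest Mag, at 3.23, 3.58 and 1.89 against 4.42 or more. The part of this in the correlations was not tested. Pearson r was 0.992 for Siglece with Cd33, 0.962 for Siglece with Siglecf and 0.95 for Siglecf with Cd33 (n = 9), and 0.965, 0.902 and 0.936 without replicate 8 (n = 8). For Siglech with Siglece, Siglecf and Cd33 r was 0.413, 0.407 and 0.353, and 0.604, 0.432 and 0.548 without replicate 8. The libraries share their sort and normalization, so these are descriptions. The promoters printed for Siglece, Siglecf and Cd33 each hold the PU.1 motif, and that of Siglech does not. That of Siglecg holds it as well; its r with Siglece, Siglecf and Cd33 was 0.92, 0.822 and 0.949 over the 9 libraries and -0.28, -0.416 and -0.376 without replicate 8.

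Between the origins, limma called 0 of 6 members in ER-Hoxb8 against BMD MLCs, where 6.56% of all genes were called and 3623 had an unadjusted p below 0.05. Siglec1 passed the adjusted p alone and was higher in ER-Hoxb8 MLCs (log2FC 1.27, SE 0.43, adjusted p = 0.0427), with overlapping groups. Siglech had a log2FC of -1.59 (adjusted p = 0.0856) and Cd33 one of -1.29 (adjusted p = 0.415). The Siglech value leans on ER-Hoxb8 MLC replicate 6, without which it was -0.79 (adjusted p = 0.194). With wild-type donors alone, which include that replicate, it was -2.92 (adjusted p = 0.002), and with GFP donors alone -0.25 (adjusted p = 0.78). The 2 members with an unadjusted p below 0.05 were Siglec1 and Siglech. Median log2FCs were -0.461 for members and -0.217 for all genes.

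Interferon-stimulated genes, a list of 20 that the study itself plotted for the edited cells of this series, stood beside Siglec1. The list was chosen with earlier results of these data known and is therefore no independent evidence. Its mean was 6.57 to 8.19 in ER-Hoxb8 MLCs and 2.54 to 3.84 in BMD MLCs, without overlap. Of the list, 19 of 20 were called higher in ER-Hoxb8 than in BMD MLCs (median log2FC 3.86) and 20 of 20 higher than in microglia (median 5.73). Against cultured macrophages 17 were higher in ER-Hoxb8 MLCs (median 3.96), while in BMD MLCs 3 were higher and 1 lower (median 0.423). In BMD MLCs 7 were higher than in microglia (median 1.41). Across these contrasts Siglec1 and the list did not always share a direction. In ER-Hoxb8 MLCs against cultured macrophages the list was higher and Siglec1 was not.

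The enzymes that build the ligands of Siglecs were looked at in brain as well. Of 20 sialyltransferases, which attach sialic acid to sugar chains, 12 were abundant enough to be tested. Between ER-Hoxb8 MLCs and microglia 6 were lower and 0 higher (median log2FC -1.53), where 16.3% of all genes were called; among them St3gal6 read a lowest, median and highest 4.89, 5.67 and 7.84 in ER-Hoxb8 MLCs against 8.45, 8.95 and 9.03 in microglia (log2FC -2.99, SE 0.58, adjusted p = 0.000218). For BMD MLCs 1 was higher than in microglia, St8sia4, and 0 lower (median -0.134), beside 10.7%. Against cultured macrophages St3gal6 was higher in BMD and in ER-Hoxb8 MLCs, by 4.30 (limma adjusted p = 0.00021) in the former and 4.57 in the latter. St6gal1 was lower by 3.93 in ER-Hoxb8 MLCs (SE 0.76, limma adjusted p = 0.00031). In those contrasts 3 of 12 were higher and 0 lower for BMD cells (median 0.089), beside 15.9% of all genes, and 3 higher and 2 lower for ER-Hoxb8 cells (median 0.626), beside 19.3%. ER-Hoxb8 against BMD MLCs gave 3 of 12 lower (median -0.958), namely St3gal5, St6gal1 and St8sia6, beside 6.56% of all genes. Among progenitors, 4 of 12 were lower in ER-Hoxb8 than in marrow cells (median -0.874), beside 15.3% of all genes, and Neu1, the lysosomal sialidase, was higher by 2.29 (SE 0.30, adjusted p = 0.000192); BM monocytes had 1 of 12 lower, St3gal6 (median -0.255), beside 6.84%.

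The edited lines ask what loss of Adar1, the enzyme that edits adenosines in double-stranded RNA, does before and after differentiation. The RNA level of Adar does not report a CRISPR edit: it was 4.36, 4.23 and 4.24 in guide 1 progenitors, 4.20, 3.42 and 4.28 in NTC progenitors, 6.96, 7.16 and 7.01 in guide 1 macrophages, and 5.73 and 5.67 in NTC macrophages. Adar RNA was thus higher, not lower, in guide 1 macrophages (log2FC 1.34, SE 0.21, n = 3 and 2, adjusted p = 0.000976). In sets of their own, NTC macrophage replicate 2 read 5.86, and guide 2 cells 4.35, 4.56 and 4.36 in progenitors and 6.99 to 7.03 in macrophages.

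Macrophages were first set against progenitors with the same guide; the labels do not say whether the NTC macrophages and NTC progenitors tested came from one transduced line. In NTC cells Siglec1 rose from -1.86, -0.93 and -0.21 in progenitors to 6.11 and 6.15 in macrophages (log2FC 7.13, SE 0.42, n = 2 and 3, adjusted p = 3.43e-08). Siglech rose from -2.14, -1.80 and -1.62 to 0.13 and 0.47 (log2FC 2.16, SE 0.45, adjusted p = 0.00108). Siglecf fell from 1.86, 0.65 and 0.83 to -1.04 and -1.61 (log2FC -2.44, SE 0.49, adjusted p = 0.000822). Siglecg fell from 2.88, 2.65 and 2.73 to -2.61 and -3.43, which is 1.6 and 0 counts, so that its log2FC of -5.77 (adjusted p = 2.88e-08) depends on the offset of the log scale. None of these groups overlapped. With log2(CPM + 1) the log2FC was 0.854 for Siglech and -1.245 for Siglecf, which ended both calls. Cd33 passed the adjusted p below the fold limit (log2FC -1.03, adjusted p = 4.52e-05), and Siglece did not pass. In this fit, which also holds guide 1, Siglec1 and Siglech passed the filter through macrophage libraries alone and Siglecf and Siglecg through progenitor libraries alone. The count of 4 of 6 members called, 2 higher and 2 lower, where 23.5% of 11008 genes were, is therefore a description and supports nothing (medians -0.206 and -0.08). Without NTC macrophage replicate 1 or 3, which leaves 1 library in that group, Siglech was above 1 CPM in too few libraries to be tested. The library normalized apart, NTC macrophage replicate 2, read 6.57 for Siglec1, 2.74 for Siglece, -0.81 for Siglecf, -1.99 for Siglecg, 1.15 for Siglech and 5.71 for Cd33.

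Guide 1 cells showed the same rise of Siglec1, from -0.61, -1.27 and -0.54 to 6.87, 7.57 and 7.45 (log2FC 8.10, SE 0.37, adjusted p = 4.7e-09). Siglecg fell from 2.54, 2.54 and 2.28 to -2.11, -1.78 and -2.40 (log2FC -4.55, SE 0.30, adjusted p = 7.46e-08). The macrophage values of Siglecg stand for 2.3 to 5.9 counts. Siglech (log2FC 1.79, adjusted p = 0.00177), Siglece (1.34, adjusted p = 0.00388) and Siglecf (-1.15, adjusted p = 0.0327) passed the adjusted p with smaller folds. Without guide 1 progenitor replicate 1 Siglech was called at 2.13 (adjusted p = 0.000795). The count was 2 of 6 members, 1 higher and 1 lower, where 21.6% of all genes were called (medians 0.607 and -0.057). Both had passed the filter only through the group where they are high, so this count too is a description.

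In guide 2 cells Siglec1 rose from -0.05, -0.57 and -0.06 to 8.33, 8.06, 8.31, 8.45 and 8.35 (log2FC 8.53, SE 0.13, n = 5 and 3, adjusted p = 3.31e-12). Siglecg fell from 0.90, 0.83 and 1.30 to -0.53, -0.45, -2.04, -1.54 and -1.95 (log2FC -2.31, SE 0.43, adjusted p = 0.000565). Again no library of one group reached the other, though with log2(CPM + 1) Siglecg had a log2FC of -1.117 and was not called. Siglece rose within the fold limit (1.27, adjusted p = 3.1e-05) and Cd33 fell within it (-0.55, adjusted p = 7.4e-05). Siglech did not pass, at 1.76, 1.54 and 2.05 against 1.49 to 2.25. Siglecf, at 0.54, -0.15 and 0.23 in progenitors and -1.46 or less in macrophages with 2 libraries at 0, was too low to be tested. The count was 2 of 5 tested members, where 19.3% of 10698 genes were called (medians 0.157 and -0.031). Without any 1 of the 3 progenitor libraries Siglecg was above 1 CPM in too few libraries to be tested, which left 1. Siglecg passed the filter through progenitors alone, as no macrophage library exceeded 0.6482 CPM, and Siglec1 through macrophages alone, so the count is a description. No NTC library shares this normalization, so guide 2 was not compared with NTC.

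**Figure D3:**
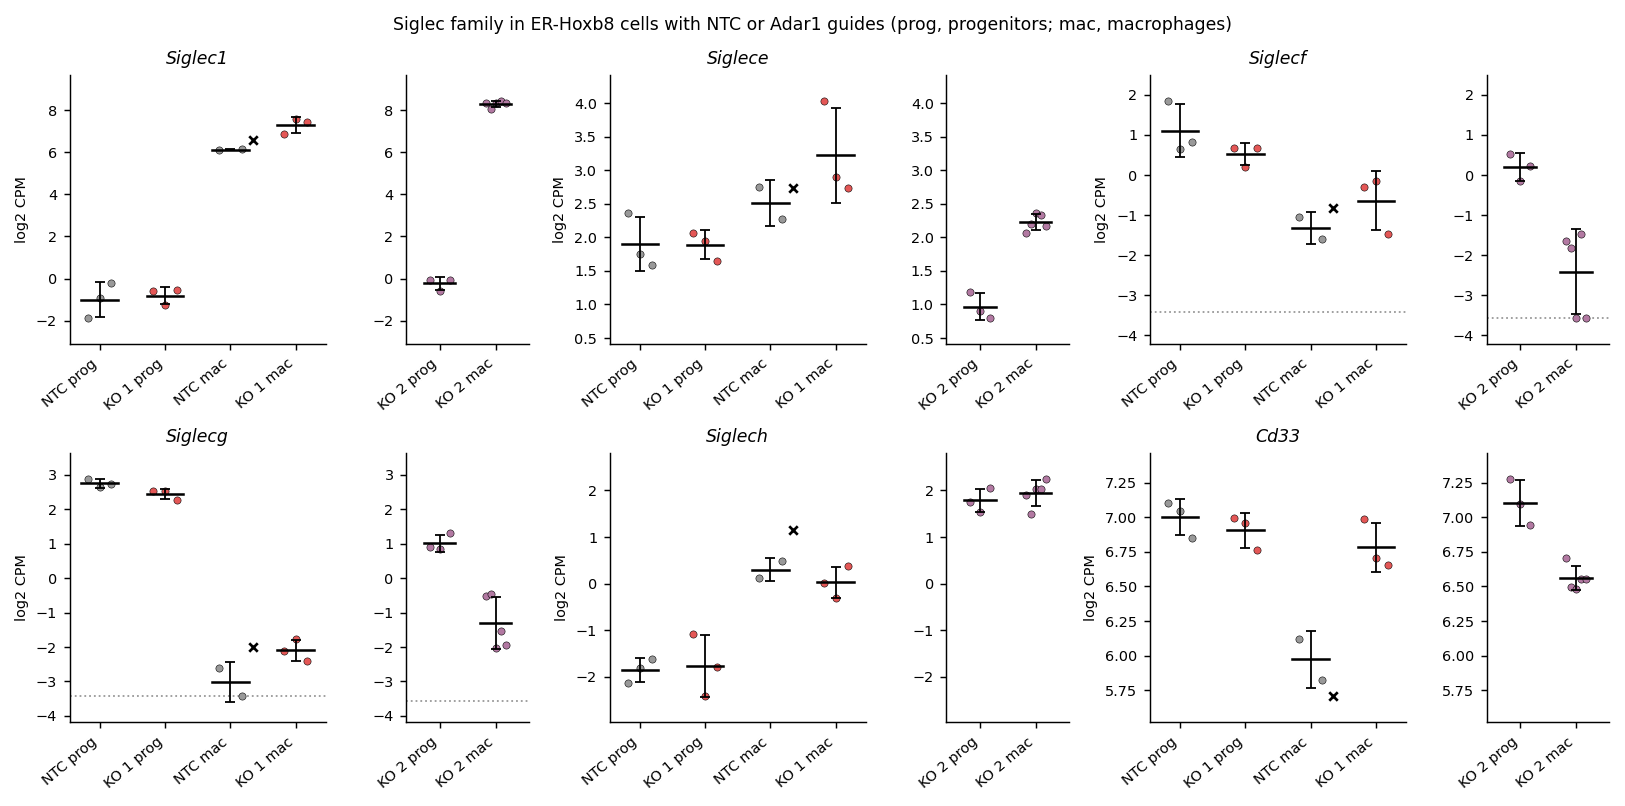
Expression of the 6 members (y axes, log2 CPM) in progenitors and macrophages with the NTC guide or guide 1 (left of each pair of panels) and, normalized separately, with guide 2 (right); points are libraries, lines the mean, bars the SD, and the cross is NTC macrophage replicate 2, left out of the mean. Siglec1 is -1.86 to -0.05 in progenitors and 6.11 to 8.45 in macrophages of every line.

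Guide 1 cells were then set against NTC cells, where guide and transduced line cannot be told apart. In macrophages Cd33 was higher with guide 1, at 6.99, 6.70 and 6.66 against 6.12 and 5.83 with NTC, without overlap (limma log2FC 0.81, SE 0.14, n = 3 and 2, adjusted p = 0.00185). In progenitors it was 6.99, 6.96 and 6.76 against 7.11, 7.04 and 6.85, which overlap (log2FC -0.10, adjusted p = 0.99). The replicate numbers held as pairs among progenitors, and Cd33 was lower with guide 1 in all 3 pairs, with an adjusted p of 0.821 with a block for the pair. Siglecg was also lower in all 3 pairs, at 2.28 to 2.54 against 2.645 to 2.88. Its groups did not overlap (log2FC -0.30, adjusted p = 0.987). The interaction, which compares the effects of guide 1 in macrophages and in progenitors, was 0.905 for Cd33 (SE 0.19, adjusted p = 0.00859). Siglec1 was higher in all guide 1 macrophages than in the NTC macrophages of the same set and did not pass (log2FC 1.17, SE 0.42, adjusted p = 0.0677). Siglecg at its counts in macrophages is given no fold. Siglece read 4.04, 2.90 and 2.74 against 2.75 and 2.27, Siglecf -0.29, -0.14 and -1.48 against -1.04 and -1.61, and Siglech 0.01, -0.31 and 0.37 against 0.13 and 0.47, all with overlap.

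With both limits, limma called 0 of 6 members between guide 1 and NTC in progenitors (0.254% of all genes; 0 members and 725 genes at an unadjusted p below 0.05), 0 of 6 in macrophages (4.02%; 3 members and 3938 genes) and 0 of 6 for the interaction (4.19%; 2 members and 3202 genes). Median log2FCs of members were -0.053, 0.761 and 0.938, beside -0.015, 0.047 and 0.077 for all genes; quantile normalization moved the last 2 medians of all genes by -0.105 and -0.114. The 20 interferon-stimulated genes were all called higher in guide 1 macrophages (median log2FC 4.43) and 0 of them in progenitors. Their mean was 8.67, 8.37 and 7.72 in guide 1 macrophages, 3.70 and 3.69 in NTC macrophages and 7.87 to 8.04 in guide 2 macrophages. Macrophage markers, 4 genes, summed to 6186, 7150 and 6995 CPM in guide 1 macrophages and to 10640 and 9489 CPM in NTC macrophages. Monocyte markers summed to 409.7 to 1136 CPM against 288.4 and 233.3, neutrophil markers to 68.86 to 82.08 against 15.44 and 10.76, and border macrophage markers to 190.3 to 264.1 against 1111 and 933.7. The part of these in the level of Cd33 was not tested. Of 11 sialyltransferases tested, St3gal6 was higher in guide 1 macrophages (log2FC 3.05, SE 0.61, adjusted p = 0.00465) and St6gal1 lower (-2.35, SE 0.30, adjusted p = 0.000167), with a median of -0.213.

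The baricitinib series asks how far the response of the edited macrophages depends on JAK signalling. Without drug, Cd33, Siglece and Siglec1 were higher in Adar1 KO macrophages than in NTC. Cd33 read 7.31, 7.09 and 6.96 against 5.25, 4.79 and 5.17 (log2FC 2.05, SE 0.26, n = 3 and 3, adjusted p = 1.36e-06). Siglece read 3.83, 4.18 and 4.21 against 2.46, 2.29 and 1.69 (log2FC 1.92, SE 0.23, adjusted p = 5.72e-07). Siglec1 read 8.23, 7.22 and 6.53 against 6.14, 5.83 and 5.69 (log2FC 1.44, SE 0.46, adjusted p = 0.0211). In each the groups did not overlap. Adar RNA read 7.42, 6.52 and 6.37 in KO and 5.12, 4.94 and 4.69 in NTC libraries (log2FC 1.85, adjusted p = 0.0051). Siglecf was low and variable, and Siglecg and Siglech, with at most 3.4 and 5.7 counts in any library of the series, were not tested.

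Cd33 was the member past both limits, 1 of 4 tested beside 3.87% of 11152 genes (medians 1.68 and -0.024). Its call sits at the fold limit: it read 1.91 without NTC replicate 2 and 1.96 without KO replicate 1, and Siglece then crossed the limit at 2.04 without KO replicate 1 or 2.08 without NTC replicate 1. At 0.0006 µM Cd33 was again called, at 7.16, 6.61 and 6.75 against 4.85, 4.61 and 4.95 (log2FC 2.04, adjusted p = 1.14e-06), and was not without NTC replicate 2 (1.94) or KO replicate 1 (1.88). There 1 of 4 members was called beside 5.00% of genes (medians 1.16 and -0.002). Siglece differed by 1.51 (adjusted p = 1.62e-05) and Siglec1 by 0.38 (adjusted p = 0.572).

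At 0.016 µM 0 of 4 were called by limma, beside 5.12% (medians 1.396 and 0.001; 2 members and 4626 genes at an unadjusted p below 0.05), though Cd33 at 6.75, 6.76 and 6.94 against 4.70 to 4.89 had a log2FC of 2.00 (adjusted p = 4.48e-07) and Siglece one of 1.96 (adjusted p = 8.82e-08). Leaving out 1 library put either past the limit: Cd33 read 2.00 to 2.03 without NTC replicate 1, 3 or 4 or KO replicate 1 or 2, and Siglece 2.02 without NTC replicate 1 and 2.11 without KO replicate 3. At 0.4 µM 0 of 4 were called beside 1.78% (medians 0.72 and 0.006; 2 members and 3177 genes at an unadjusted p below 0.05). Siglece still differed by 1.603 (adjusted p = 1.01e-05), at 4.75, 3.83 and 4.56 against 2.51 to 2.98, and Cd33 by 0.92 (adjusted p = 0.0134), at 6.07, 4.82 and 5.98 against 4.36 to 4.99, with overlap through KO replicate 2 alone; without that library it was 1.32 (adjusted p = 0.000285). Siglec1 differed by -0.025 with all libraries, at 4.33, 7.36 and 4.33 against 5.28 to 5.55, and by -1.036 (adjusted p = 0.0116) without KO replicate 2.

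At 10 µM the direction of Siglec1 was the opposite: KO libraries read 2.07, 2.28, 2.74 and 2.64 against 4.36, 4.42 and 4.40 in NTC, all lower (log2FC -1.96, SE 0.43, n = 4 and 3, adjusted p = 0.000472). Siglece (1.27, adjusted p = 2.94e-05) and Cd33 (1.15, adjusted p = 0.000397) stayed higher in KO. Siglecf read 0.40, 0.41, 0.80 and 0.27 in KO against -0.70, -2.78 and -0.06, where one NTC library is at 0 (log2FC 1.65, adjusted p = 0.0251, and 0.85 at 0.276 without that library, replicate 2). In the whole series it passed the filter through KO libraries alone, as no NTC library exceeded 0.8586 CPM, so these values are a description. None reached the fold limit, so 0 of 4 were called by limma beside 3.14% (medians 1.21 and 0.002; 4 members and 5754 genes at an unadjusted p below 0.05). Siglecf was called without NTC replicate 3 (2.21, adjusted p = 0.00807) and Siglec1 without KO replicate 3 (-2.06) or 4 (-2.03).

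**Figure D4:**
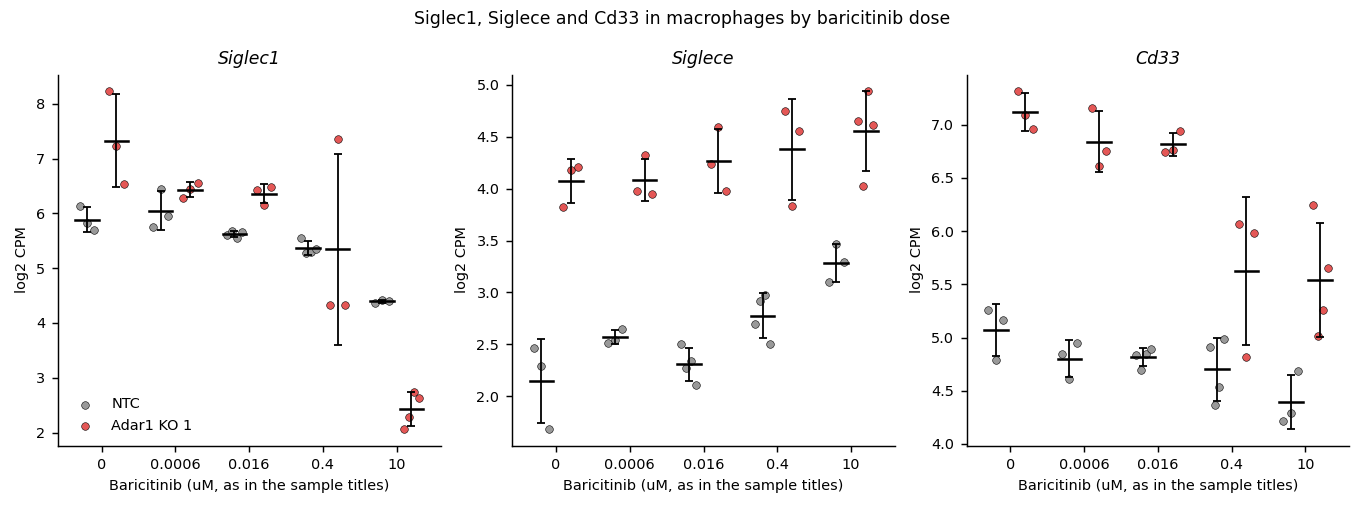
Expression of Siglec1, Siglece and Cd33 (y axes, log2 CPM) by dose of baricitinib (x axes, µM) in NTC (grey) and Adar1 KO (red) macrophages. Points are libraries, short lines the mean of each group and bars the SD. Siglec1 in KO falls from 6.53 to 8.23 at 0 µM to 2.07 to 2.74 at 10 µM, while Siglece stays above NTC at every dose.

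Against the untreated cells of the same genotype, the drug lowered Siglec1 in KO macrophages most. At 10 µM its log2FC was -4.89 (SE 0.43, n = 4 and 3, adjusted p = 1.17e-10), and all 4 treated libraries lay more than 3 log2 units under the lowest untreated one. In NTC macrophages it was -1.495 (SE 0.46, adjusted p = 0.0291), also without overlap. Without NTC replicate 2 at 10 µM the log2FC in NTC was -1.509 (adjusted p = 0.0755) and did not pass. The difference between the effects in KO and in NTC, the interaction, was -3.40 (SE 0.63, adjusted p = 0.000121). Cd33 fell by 1.58 in KO (SE 0.25, adjusted p = 2.83e-06), to 6.24, 5.01, 5.26 and 5.65. In NTC its log2FC was -0.68 (adjusted p = 0.0865), and the interaction was -0.90 (SE 0.36, adjusted p = 0.048). Without NTC replicate 2 at 10 µM the interaction for Cd33 was -0.957 (adjusted p = 0.0577) and did not pass. Siglece went the other way in NTC, from 1.69 to 2.46 at 0 µM to 3.10, 3.47 and 3.29 (log2FC 1.139, SE 0.23, adjusted p = 0.00184). In KO it did not pass (0.49, adjusted p = 0.0535), nor did its interaction (-0.65, adjusted p = 0.106).

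Members called at 10 µM against 0 were 1 of 4 in KO (14.7% of all genes; medians -0.55 and 0.052), 0 of 4 by limma in NTC (0.834%; medians -0.564 and -0.005; 3 members and 3169 genes at an unadjusted p below 0.05) and 1 of 4, lower, for the interaction (7.11%; medians -0.778 and 0.064). These contrasts share their untreated libraries, and the KO against NTC contrasts above use the same libraries again.

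At 0.4 µM KO replicate 2 stood apart. Siglec1 read 4.33, 7.36 and 4.33, and the mean of the interferon-stimulated genes was 1.78, 10.08 and 3.29, so that replicate 2 was above every untreated library in the latter. With all 3, Siglec1 had a log2FC of -1.99 against 0 µM (SE 0.46, adjusted p = 0.00204); without replicate 2 it was -2.996 (adjusted p = 1.53e-09) and called, as it was without KO 0 µM replicate 2 (-2.04) or 3 (-2.38). Cd33 fell by 1.498 (adjusted p = 0.000137), at 6.07, 4.82 and 5.98, without overlap and with its lowest value in replicate 2. With all libraries 0 of 4 members were called by limma beside 1.93% of genes (medians -0.83 and 0.033; 2 members and 4124 genes at an unadjusted p below 0.05).

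Lower doses called no member in either genotype by limma. In KO, 0 of 4 were called at 0.0006 µM (0.0628% of genes; medians -0.134 and 0.024; 0 members and 1815 genes at an unadjusted p below 0.05) and 0 of 4 at 0.016 µM (0.152%; medians -0.517 and 0.06; 1 member, Siglec1 with a log2FC of -0.97, and 2390 genes). In NTC, 0 of 4 members and 0% of all genes were called at 0.0006, at 0.016 and at 0.4 µM, with 345, 434 and 598 genes at an unadjusted p below 0.05 and of the members 0, 0 and 1. That member was Siglece at 0.4 µM, with 2.69, 2.92, 2.98 and 2.51 against 1.69 to 2.46 (log2FC 0.63, adjusted p = 0.753). Medians were 0.081, -0.258 and -0.164 for the members and -0.01, -0.007 and -0.011 for all genes.

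Beside Siglec1, the interferon-stimulated genes were lower at 10 µM. Their mean was 7.43 to 7.46 in untreated KO, 7.26 to 7.67 at 0.0006 µM, 7.44 to 7.73 at 0.016 µM and 1.09 to 1.22 at 10 µM. In NTC it was 3.06 to 3.35 untreated and 2.91 to 3.445 at 0.0006 µM. It was 2.26 to 2.33 at 0.016 µM, 1.33 to 1.59 at 0.4 µM and 0.96 to 1.15 at 10 µM in NTC. Of the 20, 18 were called higher in KO at 0 µM (median log2FC 3.76), 16 at 0.0006 µM (3.94), 20 at 0.016 µM (5.32) and 0 at 10 µM (0.101); at 0.4 µM KO replicate 2 stood apart, and no count is given. From 0 to 10 µM 18 fell in KO (median -6.52) and 6 in NTC (median -1.74), and 13 had a lower interaction (median -4.09). At 10 µM macrophage markers were also lower in KO, with 4144, 3584, 3442 and 3678 CPM against 6154 to 6776 CPM untreated, led by Cd68, and the 4 progenitor markers were 11.05 to 14.42 CPM, nearly all Cd34 with Kit at 0, against 1.613 to 3.085 CPM. The part of these in the fall of Siglec1 was not tested.

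Among the enzymes for Siglec ligands, St3gal5, which makes the ganglioside GM3, had the widest range over these libraries. It read a lowest, median and highest -1.78, -1.21 and -0.53 in untreated KO and 4.06, 4.26 and 4.75 in untreated NTC (log2FC -5.53, SE 0.39, adjusted p = 2.11e-11). With 10 µM it read 3.13, 3.59 and 4.37 in KO and 5.13, 5.37 and 5.55 in NTC, and the interaction was 3.84 (SE 0.53, adjusted p = 2.71e-06). In untreated KO its values lie near the floor of 3 counts. Its range, the log2FC of -5.53 and the interaction therefore depend on the offset of the log scale. St3gal5 was 1 of 12 sialyltransferases called lower in KO at each of 0, 0.0006 and 0.016 µM, with 0 higher and list medians of -0.384, -0.529 and -0.143. From 0 to 10 µM in KO 2 of 12 rose and 1 fell (median -0.049), where 14.7% of all genes were called, and Neu1 fell by 2.10 (SE 0.12, adjusted p = 2.58e-14).

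**Figure D5:**
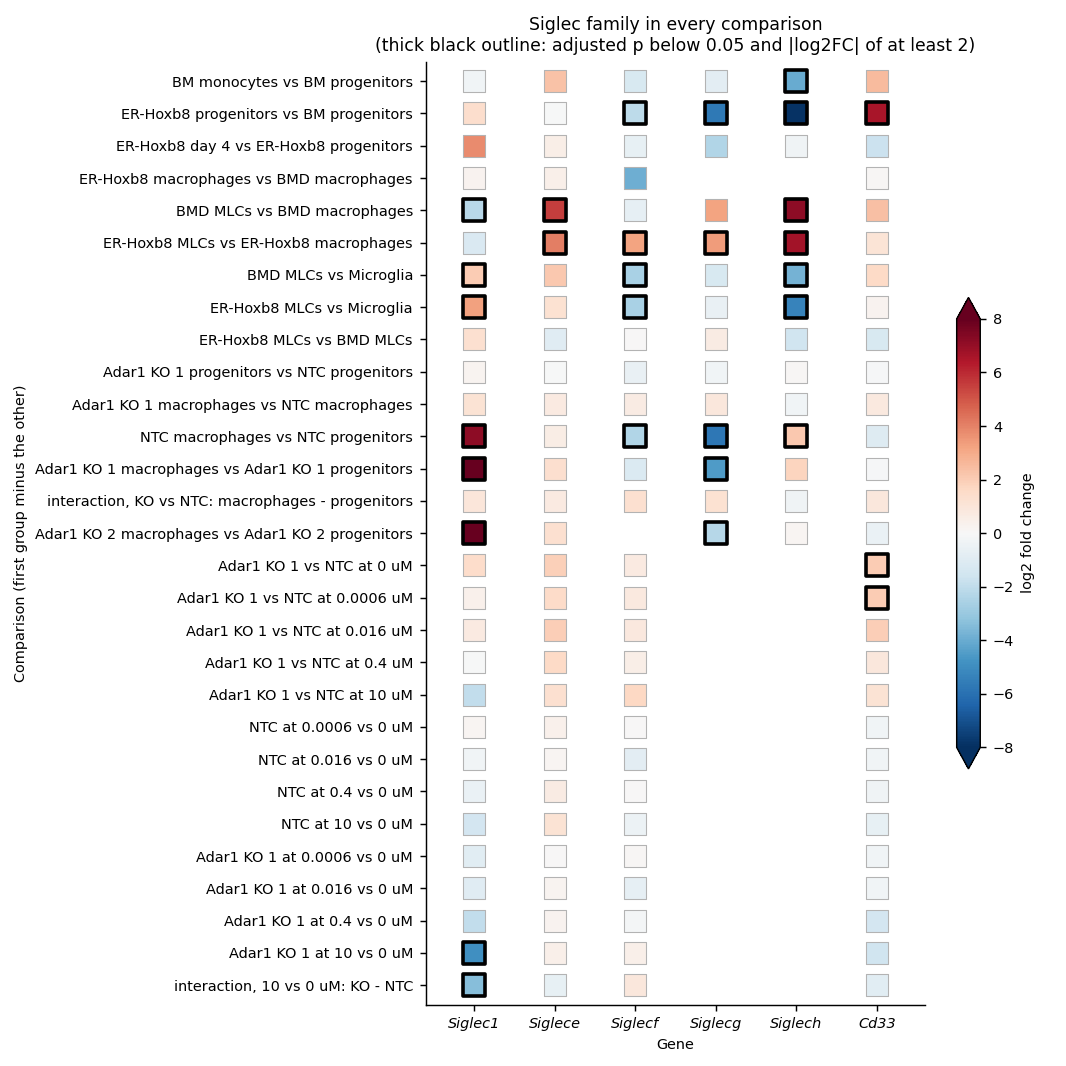
Log2FC of each member (columns) in each of the 29 comparisons (lines of squares), with colour from -8 to 8; thick outlines mark an adjusted p below 0.05 with a log2FC of at least 2 in size, and missing squares were not tested. Siglec1 is deepest in macrophages against progenitors (7.13 to 8.53 in the edited lines), Siglech in ER-Hoxb8 against BM progenitors (-7.94) and in MLCs against macrophages (7.15 and 6.74), and Cd33 in ER-Hoxb8 against BM progenitors (6.57).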

How the data were processed

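The authors trimmed reads with fastp, assigned them to mouse transcripts (GRCm39) with Kallisto 0.46.0, summed them to genes with tximport and applied TMM normalization in edgeR. The deposited values are log2 CPM with a small offset. The table has 29957 lines, and 1 of them, without a gene name and with 0.0023% to 0.0584% of each library, was not used. All 92 libraries were used. Libraries were grouped by the conditions and replicate numbers of their labels, and those with one shared lowest value were taken as 1 of 6 normalization sets. Raw counts were not used here. CPM were recovered by undoing the log2 and subtracting the value of the lowest entry, and depth was inferred from the steps between low CPM values.

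Genes above 1 CPM in at least 3 libraries of a fit (6 where cells from brain were included) were tested with limma 3.58.1 in R 4.3.3, with a mean for each group, eBayes with trend and Benjamini-Hochberg adjustment over all genes tested, in 29 comparisons. Genes were called at an adjusted p under 0.05 where the log2FC also reached 2 in size. Alternatives were log2(CPM + 1), no filter on low values, quantile normalization, no fold limit, a block for the replicate number, each kind of ER-Hoxb8 donor alone, microglia without replicates 8 and 9 (set apart by their library names, with the same title as the others), a fit of 5 groups for the in vitro macrophages, and 97 refits without 1 library. Tables used Python 3.11.15, numpy 2.4.6, pandas 2.3.3 and scipy 1.17.1, and plots matplotlib 3.10.9.

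Replicate numbers were checked as pairs through the correlation of libraries with the same number after removal of group means. Of the comparisons with 3 or more pairs, every pair exceeded 0.1 in ER-Hoxb8 day 4 against progenitors (0.226 to 0.427) and in guide 1 against NTC progenitors (0.158 to 0.349), and the block changed no call of a member in either.

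The genes named are the members, the other Siglecs, their adaptors, the enzymes of sialic acid synthesis, transfer and removal, 20 interferon-stimulated genes that the study plots, Adar and Hoxb8 as checks of labels, markers of 14 cell types by list, and for each member the 5 genes with the highest Pearson r to it. Some of the results for these genes and lists are not reported here. The members and lists were chosen with earlier results of these data known. Shared words of 31 bases were counted in GENCODE M21 transcripts. The authors' own comparisons were not used.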

Additional observations from a re-analysis of the deposited data

Results flagged for a closer look

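In groups of 4 to 10 libraries, a library was listed when its gap to the nearest other one took up more of the range than Dixon's 95% limit. That held for 8 of 42 groups of member values, where chance gives about 1 in 20. Microglia replicate 8 accounts for 4 of them: Siglece read -0.554 there (nearest 4.511; 10.2 counts), Siglecf 2.593 (nearest 4.604; 100.9 counts), Siglecg -2.679 (nearest 3.11; 1.3 counts) and Cd33 0.014 (nearest 5.556; 15.7 counts). This library is also the one with the most astrocyte and oligodendrocyte marker RNA among microglia, while its Siglech lay within the range of the others. Siglech in ER-Hoxb8 MLC replicate 6, the library rich in monocyte markers, read 1.431, from 61.0 counts, where the nearest read 5.403.

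Siglece in BMD MLC replicate 3 read 6.753, below a nearest value of 7.49 and still among the higher values of the gene. In the baricitinib series Siglecg in KO replicate 3 at 10 µM read -1.615, from 2.8 counts, with the other 3 libraries at 0 (-2.781). Siglech in NTC replicate 4 at 0.4 µM read -2.17, from 1.0 counts, with the nearest at -0.946. These last values lie at or under the floor.

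Effects that differed between groups by their own limma interaction test, 3 of 10 looked at, were those of guide 1 on Cd33 in macrophages against progenitors (0.905), and those of 10 µM baricitinib in KO against NTC on Siglec1 (-3.399) and Cd33 (-0.903). The last of these did not pass without NTC replicate 2 at 10 µM (-0.957, adjusted p = 0.0577).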

How the results depend on the processing

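Of 1730 values of members under alternatives other than that without a fold limit, 56 had the opposite sign, 0 of them with a called value. Among these 1730 values 37 calls were lost and 30 gained. The counts of members called that moved by over 1.5 times were these, and the cause was not tested. With quantile normalization the count went from 1 to 2 in BM monocytes against progenitors, from 1 to 0 in KO against NTC at 0 µM, from 0 to 1 at 0.016 µM, and from 0 to 1 for KO at 0.4 against 0 µM. With log2(CPM + 1) it went from 4 to 2 in NTC macrophages against progenitors and from 2 to 1 in guide 2 macrophages against progenitors. Wild-type ER-Hoxb8 donors alone gave 2 in place of 4 for ER-Hoxb8 MLCs against macrophages, where Siglece (3.55, adjusted p = 0.0691) and Siglecg (3.16, adjusted p = 0.0851) were lost, and 1 in place of 0 against BMD MLCs. The fit of 5 groups gave 1 in place of 0 between in vitro macrophages, Siglecf at -3.91 (adjusted p = 0.0431). Without the filter no count moved that far.

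With a block for the replicate number, a pairing that the data bear out only where stated, BMD MLCs against macrophages gave 5 in place of 3, adding Siglecg (3.52, adjusted p = 0.0205) and Cd33 (2.88, adjusted p = 0.00872), and KO against NTC at 0.016 µM gave 1 in place of 0, Cd33 at 2.05. In BMD MLCs against microglia the block put Siglec1 at 1.965, short of the fold limit.

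Without a fold limit the count went from 0 to 1 in ER-Hoxb8 against BMD MLCs, in guide 1 against NTC macrophages and in the interaction of the guide, from 2 to 5 in guide 1 and from 2 to 4 in guide 2 macrophages against progenitors. In KO against NTC it went from 1 to 3 at 0 µM, 1 to 2 at 0.0006 µM, 0 to 2 at 0.016 and at 0.4 µM, and 0 to 4 at 10 µM. Against 0 µM it went from 0 to 2 in NTC at 10 µM, 0 to 2 in KO at 0.4 µM and 1 to 2 in KO at 10 µM, and the drug's interaction from 1 to 2. This limit alone is the cause there.

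Leaving out each library in turn gave 1 to 2 members in BM monocytes against progenitors, 3 to 4 in ER-Hoxb8 against BM progenitors, 0 to 2 at day 4, 2 to 4 in BMD MLCs and 1 to 4 in ER-Hoxb8 MLCs against macrophages, 2 to 3 in BMD MLCs against microglia, 3 to 4 in NTC, 2 to 3 in guide 1 and 1 to 2 in guide 2 macrophages against progenitors. In KO against NTC it gave 0 to 2 at 0 µM, 0 to 1 at 0.0006 µM, 0 to 2 at 0.016 µM and 0 to 1 at 10 µM, and in KO at 0.4 against 0 µM 0 to 1. In the other 15 of 29 comparisons the count was the same in each refit: 3 in ER-Hoxb8 MLCs against microglia, 1 in KO at 10 against 0 µM and in the drug's interaction, and 0 elsewhere. Siglecg and Siglech lay near the floor in the baricitinib libraries and were not tested there. Refits without NTC macrophage replicate 1 or 3 leave 1 library in that group, so the spread there comes from the other groups.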

Other observations

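Other Siglecs of the table are Cd22, Mag and Siglec15. Cd22, an inhibitory receptor of B cells, was higher in macrophages than in progenitors, by a log2FC of 5.44 with NTC (SE 0.42, adjusted p = 3.49e-07), 5.99 with guide 1 (adjusted p = 5.3e-08) and 4.62 with guide 2 (adjusted p = 3.41e-08). It read 4.48 and 3.97 in NTC macrophages and -0.92, -1.94 and -0.78 in NTC progenitors. No progenitor library of these lines exceeded 0.7521 CPM. Cd22 thus passed the filter through macrophages alone, and these values are a description. In guide 1 progenitors it stood for 0.9, 3.5 and 4.2 counts, so its log2FC there depends on the offset of the log scale. Cd22 was higher in ER-Hoxb8 MLCs than in microglia (log2FC 2.22, adjusted p = 0.0122), and it fell with 10 µM baricitinib in KO macrophages (-3.34, SE 0.44, adjusted p = 2.12e-07), from 4.71, 3.99 and 3.35 to 1.97, -0.08, -0.09 and 0.93. In NTC macrophages it read 3.246, 2.224 and 3.198 at 0 µM and 1.219, -0.054 and 1.565 at 10 µM, also lower without overlap. Mag, the myelin-associated member, was higher in ER-Hoxb8 than in BM progenitors (log2FC 3.88, SE 0.39, adjusted p = 2.55e-05). Siglec15 lay at or near the lowest value in most libraries.

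Among 7 adaptors and phosphatases, Syk, the kinase that DAP12 recruits, rose from NTC progenitors to macrophages (log2FC 2.496, SE 0.20, adjusted p = 5.15e-07), was lower in ER-Hoxb8 MLCs than in their macrophages (-2.06, adjusted p = 0.000871) and fell with 10 µM baricitinib in KO (-2.22, SE 0.13, adjusted p = 9.29e-14). Tyrobp, the gene for DAP12, was listed at the lowest value in all 8 guide 2 libraries, in all NTC and guide 1 progenitors and in the baricitinib libraries other than KO at 10 µM, so no fold is given for it. In MLCs it read 7.80 to 9.40. Cmah, which hydroxylates sialic acid, read 6.34 to 7.50 in BMD MLCs, while in ER-Hoxb8 MLCs 2 of 6 libraries, and in microglia 3 of 9, were listed at 0. Of the 5 genes of sialic acid synthesis tested there, Gne, the first enzyme, was called and fell from NTC progenitors to macrophages (log2FC -2.73, SE 0.34).

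In cells from brain, 5 markers of border macrophages summed to 2050 to 4642 CPM in BMD MLCs, to 99.5 to 1476 CPM in ER-Hoxb8 MLCs and to 15.28 to 129.3 CPM in microglia. Mrc1 led in all microglia libraries, and Mrc1 or Ms4a7, by library, in MLCs. The 3 T cell markers summed to 6.311 to 90.13, 20.65 to 197.7 and 1.51 to 20.24 CPM in the same order. Cd3d led in each library but ER-Hoxb8 MLC replicates 1, 2, 3 and 6, where Cd3g did. The 3 endothelial markers reached 28.16, 90.59 and 68.11 CPM at most, and the 3 neuronal markers 5.15, 7.521 and 21.08 CPM.

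Over the 33 baricitinib libraries the genes most like the members by Pearson r were Grn for Siglec1 (0.975), Ccpg1 for Cd33 (0.966), Lcp2 for Siglece (0.917) and Mllt11 for Siglecf (0.677). Over the 27 libraries of macrophages, MLCs and microglia they were Icosl for Cd33 (0.865), Tagap for Siglece (0.876), Fam46c for Siglecf (0.848) and H2-Oa for Siglecg (0.838), and Siglece itself was second for Cd33 (0.854). These libraries fall into groups, so the values describe differences between groups as well as within them.

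Hoxb8 was detected in all ER-Hoxb8 progenitor and day 4 libraries and in ER-Hoxb8 macrophage replicates 1 and 2, and was at 0 in replicate 3 of the latter, marrow cells, BMD macrophages, MLCs of both origins and microglia.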
